A study of Mus musculus with 18 samples.

Results

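The genes described here are Myc and 40 genes of ribosome biogenesis, 41 genes chosen by name, out of 19752 genes with a probe set of their own in the series. Of the 41, 39 had a probe set annotated with only their symbol. Noc2l had none, and Ppan shared its probe set with other symbols, so neither has a value below. Rrs1, an assembly factor of the large ribosomal subunit, lay between 5.13 and 6.29 on the log2 scale across all 18 arrays, under the filter on low values (a mean of at least 7.05 in at least 1 group), and was not tested. The other 38 passed that filter in every fit.

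Ribosomes are built in the nucleolus, where RNA polymerase I transcribes the ribosomal RNA precursor. Small nucleolar ribonucleoproteins then modify that precursor, and the small subunit processome, the PeBoW complex and many further assembly factors cut and fold it into the small and large subunits. MYC is a transcription factor known to raise the expression of many of these genes, and in T cells it is induced by antigen receptor signalling and accompanies growth before division. Regulatory T cells (Tregs) are CD4+ T cells that express the transcription factor Foxp3 and restrain autoimmunity.

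RNA of sorted Tregs of NOD mice, a strain prone to autoimmune diabetes, was measured on the Mouse Gene 1.0 ST array of Affymetrix. The 18 samples fell into 6 groups of 3. Spleen Tregs came from female Foxp3-eGFP-Cre-ERT2 x Rosa26-YFP mice at 60 days, in which tamoxifen lets the Cre expressed with Foxp3 switch on YFP for good in the Tregs present at that time. Perinate-tagged cells (GFP+YFP+) came from mice given tamoxifen in 4 injections between days 0 and 10, and adult-tagged cells (GFP+YFP+) from mice given it between days 35 and 45. Untagged cells (GFP+YFP-) were sorted after perinate treatment and after adult treatment. They hold every Treg that had not been tagged, whatever its age. Thymic Tregs (GFP+) came from male mice aged 4 days (perinate) or 5 weeks (adult). Sex, sorter, tissue and mouse age differ together between spleen and thymus and cannot be told apart. As all spleen mice were 60 days old, age at tamoxifen and time since tamoxifen also differ together and cannot be told apart. Whether a replicate was a separate animal or a pool is not given in the labels, and p-values therefore cover only the spread between samples, which may be technical. A further arm of the study with chimeras is not analysed here.

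All 18 arrays had Foxp3 between 11.88 and 12.40 on the log2 scale. Within that range it was lower on perinate-tagged arrays, at 11.90 to 11.98, than on adult-tagged arrays, at 12.13 to 12.35, without overlap. Perinate-tagged replicate 2 did not match its labelled sex. It read 9.79 for the Y-linked gene Eif2s3y, where the remaining 11 arrays of spleen cells read 3.95 to 4.90. For Xist it read 8.38, where they read 11.86 to 12.41. The male thymus arrays read 9.73 to 10.04 for Eif2s3y and 5.70 to 6.30 for Xist. Its Xist value thus lay between the female spleen and male thymus ranges, and whether it mixed material of both sexes was not tested. Counts of members and listed genes past the threshold are given with and without this array, and single genes where leaving it out changed a call. Proliferation genes differed between the tagged groups and between the thymus groups. All 19 tested genes of a list of mitosis genes were higher in perinate-tagged than in adult-tagged cells (median log2 difference 2.19, and 2.11 with all 19 still higher without perinate-tagged replicate 2). They were also higher in perinate than in adult thymic Tregs (median 1.47). The width of the array distributions moved too, with an interquartile range of 2.94 to 3.12 on perinate-tagged and 2.49 to 2.88 on adult-tagged arrays, and of 3.00 to 3.06 on perinate and 2.08 to 2.82 on adult thymus arrays. Over the 38 tested members the part of either in the results below was not tested, except by the fits named there.

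Across the 6 groups, the 38 tested members had their highest group mean in perinate thymic Tregs for 31 genes and their lowest in adult thymic Tregs for 22. The mean log2 level over the members was 9.15, 9.13 and 9.26 on the perinate thymus arrays, against 8.71, 8.47 and 8.65 on the adult thymus arrays. In spleen it was 8.76, 8.91 and 8.93 on perinate-tagged arrays, against 8.69, 8.90 and 8.80 on adult-tagged arrays. The untagged arrays gave 8.87, 8.81 and 8.82 after perinate treatment, against 8.82, 8.57 and 8.89 after adult treatment. The thymus groups did not overlap, and the perinate thymus arrays lay above all spleen arrays, whereas the adult thymus arrays reached into the lower part of the spleen range and the spleen groups overlapped. In bulk samples fewer cells with a high level and less RNA per cell cannot be told apart.

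**Figure D1:**
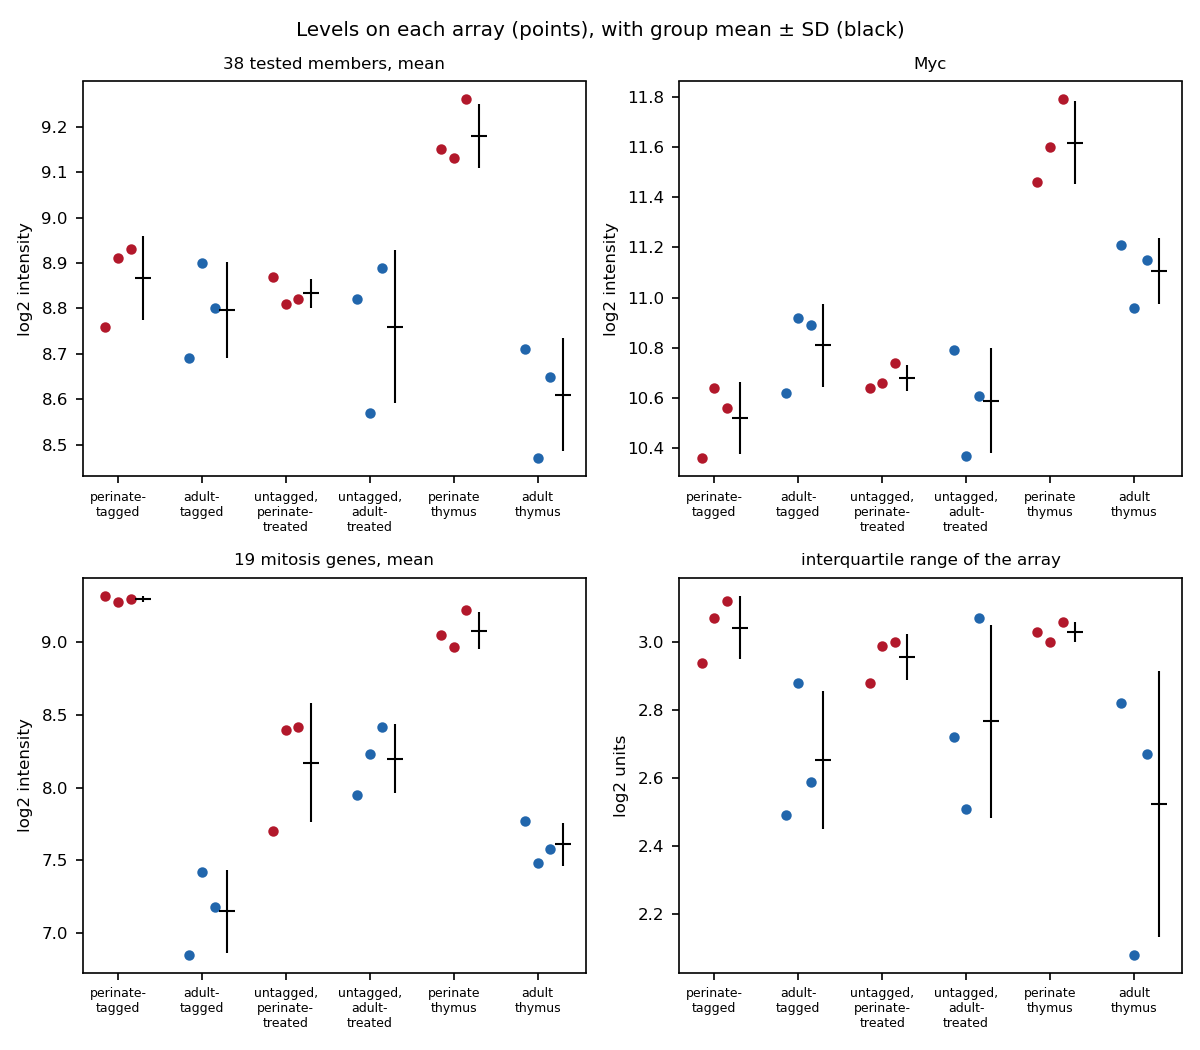
One point per array, by group, with the group mean ± SD: mean log2 intensity of the 38 tested members, log2 intensity of Myc, mean log2 intensity of 19 mitosis genes, and the interquartile range of the array in log2 units. The perinate thymus arrays lie at 9.13 to 9.26 for the members and the adult thymus arrays at 8.47 to 8.71, while the 4 spleen groups overlap.

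The first comparison asks how Tregs tagged around birth differed, in the adult spleen, from Tregs tagged in adulthood. Of the 38 tested members, 1 was higher in perinate-tagged cells at an adjusted p under 0.05 (limma, Benjamini-Hochberg over 10350 genes) and 0 were lower, while 16% of all tested genes were higher and 3.5% lower (19.5% in either direction). After quantile normalization 1115 genes were higher and 720 lower, against 1658 and 362 as deposited. The 3 members lower after quantile normalization were Myc, Polr1b and Utp20, and Nhp2 was the 1 higher. The median difference of the members was 0.06 on the log2 scale, against 0.116 for all tested genes, with 23 differences positive and 15 negative. This direction was not stable: the median was -0.09 after quantile normalization (14 positive, 24 negative) and -0.12 with array width (interquartile range) as a covariate (9 positive, 29 negative), against -0.014 and -0.017 for all genes. Without perinate-tagged replicate 2 it was 0.08, with 26 positive and 12 negative, and 1 member passed. Values of perinate-tagged and adult-tagged arrays did not overlap for 5 members with perinate-tagged cells higher and for 4 with them lower, against 33.2% and 12.7% of all genes. At an unadjusted p under 0.05 there were 4 members, 3 higher and 1 lower.

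Nhp2, a core protein of the H/ACA ribonucleoproteins that guide pseudouridylation, was the member that passed. It had log2 levels of 7.68, 7.90 and 7.95 in perinate-tagged cells, against 7.20, 7.36 and 7.38 in adult-tagged cells. The groups did not overlap. The difference was 0.53 ± 0.12 (SE, adjusted p = 0.00783, limma), or 1.45-fold, and 0.61 without perinate-tagged replicate 2 (adjusted p = 0.00636). It lost the call when the interquartile range of each array was a covariate (0.38), with the replicate block (0.41, adjusted p = 0.16) and without the 2 arrays of narrowest spread (0.48, adjusted p = 0.254).

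Myc did not pass in the spleen. Its log2 levels were 10.36, 10.64 and 10.56 in perinate-tagged cells, against 10.62, 10.92 and 10.89 in adult-tagged cells. The groups overlapped, with 2 of 3 perinate-tagged values below all adult-tagged values, and the difference was -0.29 ± 0.14 (95% interval -0.58 to 0.01, adjusted p = 0.149, limma). After quantile normalization it was -0.41 (adjusted p = 0.0282), and with array weights -0.28 (adjusted p = 0.0103), so the call depends on the scaling and the weighting. Without perinate-tagged replicate 2 the difference was -0.21 (adjusted p = 0.349).

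In the other role groups the members with the smallest p in this comparison missed the threshold. Polr1b, the second largest subunit of RNA polymerase I, had 8.75, 8.61 and 8.45 in perinate-tagged cells, against 8.82, 9.07 and 8.90 in adult-tagged cells, with a difference of -0.33 ± 0.15 (adjusted p = 0.122, limma). Utp15, a subunit of the processome that also acts in transcription of the ribosomal RNA genes, had 8.38, 8.67 and 8.80 against 7.97, 8.50 and 8.31 (difference 0.36 ± 0.15, adjusted p = 0.109). The groups overlapped for Utp15, while all Polr1b values of perinate-tagged cells were below those of adult-tagged cells. Ltv1, which acts in late maturation of the small subunit, had 8.86, 8.67 and 8.83 in perinate-tagged cells, against 8.21, 8.68 and 8.49 in adult-tagged cells (0.33 ± 0.17, adjusted p = 0.192). Nip7, a factor of the large subunit, had 7.26, 7.65 and 7.46 against 6.91, 7.21 and 7.04 (0.40 ± 0.18, adjusted p = 0.135). Nop56 and Npm1, the box C/D core protein and the nucleolar chaperone with the lowest p of their groups, differed by -0.23 (adjusted p = 0.264) and 0.20 (adjusted p = 0.224), and Wdr12 of the PeBoW complex by 0.23 (adjusted p = 0.32). Without perinate-tagged replicate 2 none of these 7 members passed either, Utp15 coming closest at 0.47 (adjusted p = 0.0535, limma).

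Among untagged cells 0 of 38 members passed in the comparison of perinate with adult treatment (limma), as 0 of 10350 genes did, and 0 members had an unadjusted p under 0.05. That fit did not pair the arrays. With the replicate number as a block and the 6 untagged arrays alone, 49 of 9891 genes and 0 members passed (limma). In it 2 members had an unadjusted p under 0.05. Groups did not overlap for 0 members in either direction, against 3.35% of genes higher and 1.46% lower. The largest member differences were 0.33 for Bysl and for Nop2, and the median was 0.07 against 0.058 for all genes. The perinate over adult difference in tagged cells minus that in untagged cells passed for 1 member, Nhp2, at 0.68 ± 0.17 (adjusted p = 0.0343, limma), where 4.29% of all genes passed with a higher difference (4.89% in either direction). Its untagged levels were 7.54, 7.68 and 7.44 after perinate treatment, against 7.66, 7.63 and 7.80 after adult treatment. The untagged groups overlapped. With the replicate number as a block the Nhp2 difference was 0.56 and did not pass (adjusted p = 0.207, limma). It held without perinate-tagged replicate 2. The call was lost without adult-tagged replicate 1 or 3, perinate-tagged replicate 4 or 5, untagged adult-treated replicate 5, or untagged perinate-treated replicate 3 or 5, and in each of these cases 0 members passed.

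Tagged and untagged cells of the same treatment were also compared, with perinate-tagged arrays shared with the first comparison. After perinate treatment 0 of 38 members passed (limma), where 5.49% of genes were higher and 1.86% lower (7.34% in all), and 6 members had an unadjusted p under 0.05. Tagged and untagged values did not overlap for 6 members higher and 5 lower, against 19.7% and 12.3% of all genes. The members with the lowest p were Ltv1, at 0.52 ± 0.17 (adjusted p = 0.0905), and Nop14, a processome subunit, at -0.48 ± 0.16 (adjusted p = 0.0964). Ltv1 had 8.86, 8.67 and 8.83 in tagged cells, against 8.55, 8.26 and 8.00 in untagged cells, without overlap. Nop14 had 7.96, 8.19 and 8.23 in tagged and 8.42, 8.56 and 8.83 in untagged cells, also without overlap. Ddx21, Nhp2, Dkc1 and Utp20 differed by 0.32, 0.29, 0.38 and -0.27, none past the threshold. Without perinate-tagged replicate 2 again 0 members passed, and Ltv1 and Nop14 were at 0.48 (adjusted p = 0.185) and -0.39 (adjusted p = 0.236). After adult treatment 0 of 38 members passed (limma), 4 had an unadjusted p under 0.05, and 0.271% of genes passed, all lower in tagged cells. Values did not overlap for 3 members higher and 1 lower, against 6.7% and 10.3% of genes.

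**Figure D2:**
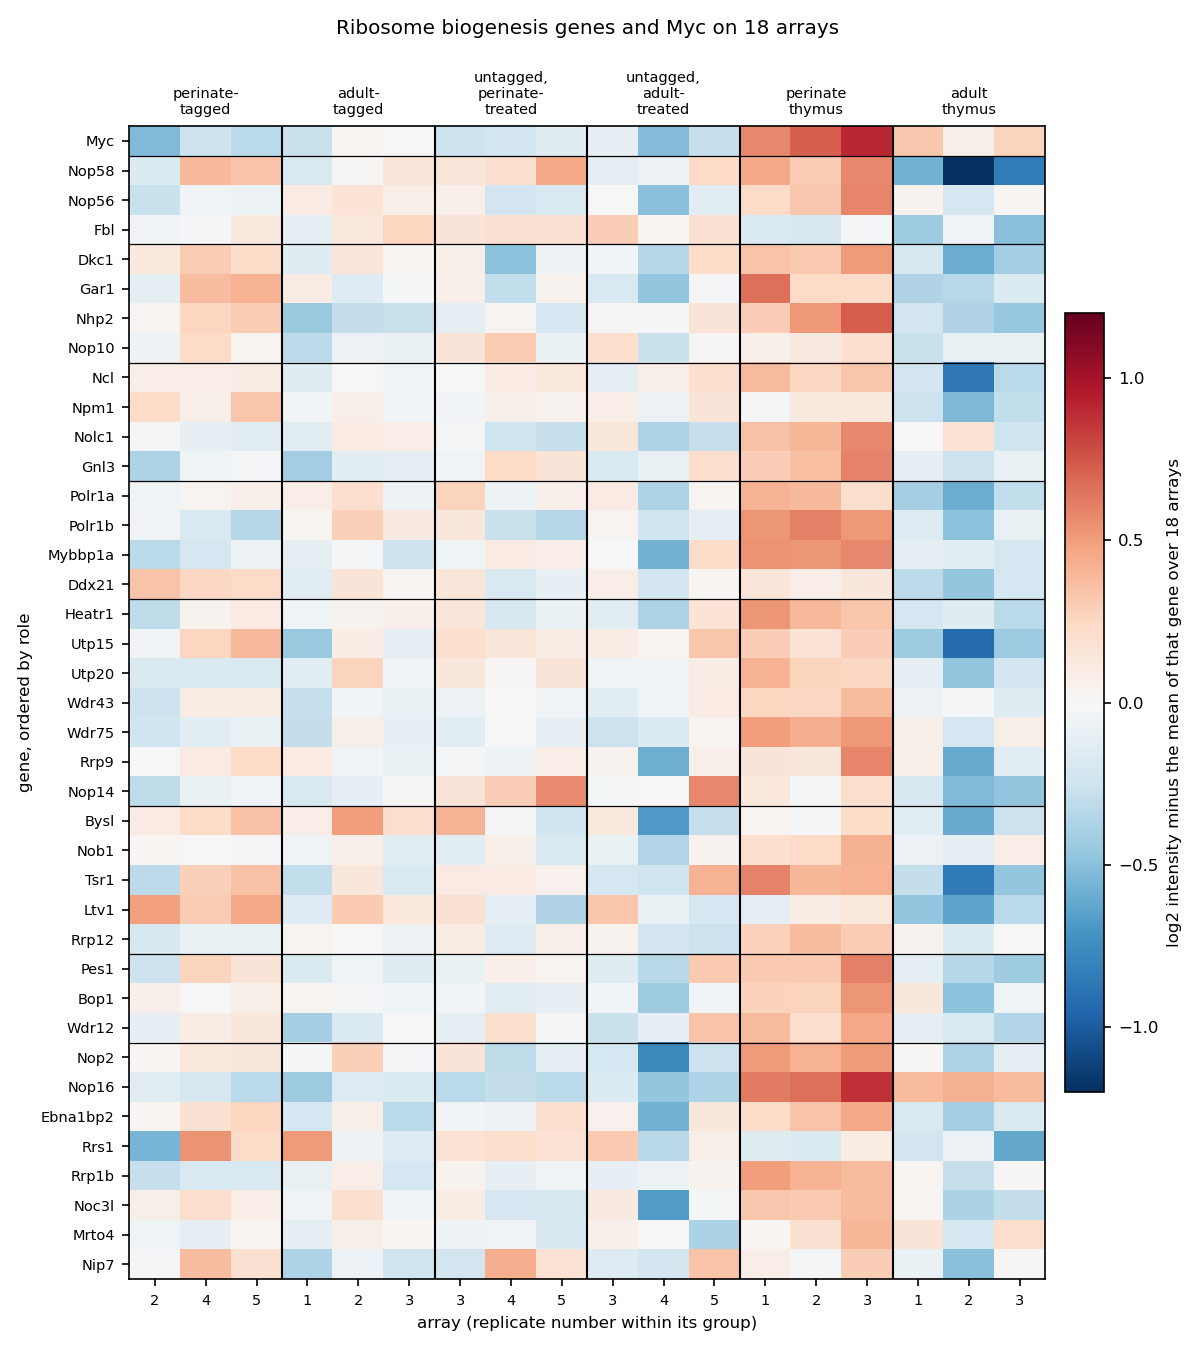
Log2 level of each of the 39 measured genes on each of the 18 arrays, as the difference from that gene's mean over the arrays, with rows by role and columns by group. Perinate thymic Tregs are above the row mean for most rows, and adult thymic Tregs below it.

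The thymus comparison asks how Tregs of the thymus at 4 days of age differed from those at 5 weeks. Of the 38 tested members 27 were higher in perinate thymic Tregs and 0 lower (adjusted p under 0.05, limma over 10650 genes), where 18.5% of all tested genes were higher and 5.84% lower (24.3% in either direction). The median member difference was 0.51 on the log2 scale, against 0.168 for all genes, and every one of the 38 differences was positive, with Fbl turning to -0.05 after quantile normalization. Values of the groups did not overlap for 35 members, against 36.9% of all genes. With the interquartile range as a covariate 19 members passed, 18 of them among the 27, and 36 of 38 differences stayed positive. The perinate thymus arrays had the wider distributions given above, and how far that width accounts for the rise was not tested beyond that fit. Leaving out one array at a time gave between 8 and 33 members, with 8 without perinate replicate 1 or replicate 3, 10 without perinate replicate 2, 12 without adult replicate 3, 32 without adult replicate 1 and 33 without adult replicate 2. In these fits the member median stayed between 0.46 and 0.61, and over all settings tried it ran from 0.35 to 0.62. Quantile normalization moved the median of all genes to 0.018 and gave 16 members, with 1225 genes higher and 969 lower in place of 1967 and 622. Median centring moved it to 0.288 and gave 30 members, with 2152 genes higher and 324 lower, and with the interquartile range as a covariate 1128 were higher and 1395 lower.

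Myc, the regulator of the list, had log2 levels of 11.46, 11.60 and 11.79 in perinate thymic Tregs, against 11.21, 10.96 and 11.15 in adult thymic Tregs. The values did not overlap, and all 6 lay above the highest of the 12 spleen values, 10.92. The difference was 0.51 ± 0.13 (adjusted p = 0.0286, limma), or 1.43-fold. It was 0.27 after quantile normalization (adjusted p = 0.103) and 0.34 with the interquartile range as a covariate (adjusted p = 0.108). The call was also lost with array weights, without adult thymus replicate 3, and without perinate thymus replicate 1, 2 or 3. In the order of group means, perinate and adult thymus came first at 11.62 and 11.11, then adult-tagged at 10.81, the untagged groups at 10.68 and 10.59, and perinate-tagged at 10.52. Neighbours in this order among the spleen groups differed by less than the larger SD of each pair.

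The members that are proteins of the box C/D ribonucleoproteins, which guide methylation of the ribosomal RNA, are Nop58, Nop56 and the methyltransferase Fbl. Nop58 had the largest rise of any member. Its log2 levels were 9.01, 8.86 and 9.13 in perinate thymic Tregs, against 7.99, 7.21 and 7.72 in adult thymic Tregs, and the difference of 1.36 ± 0.20 (adjusted p = 0.00349, limma) amounts to 2.56-fold. Its spleen means were 8.74, 8.55, 8.82 and 8.58 in perinate-tagged, adult-tagged, perinate-treated untagged and adult-treated untagged cells. The adult thymus, at 7.64, was thus the lowest group, and the perinate thymus stood closer to the spleen. Nop56 had 10.87, 10.96 and 11.22 against 10.68, 10.44 and 10.66 (0.42 ± 0.14, adjusted p = 0.056). Fbl differed by 0.19 ± 0.15 (adjusted p = 0.328) on the probe set with the higher mean. The second probe set of Fbl gave 0.82 ± 0.10 (adjusted p = 0.00198), and its numbers lie among probe sets of the chromosome that carries Fbl, whereas those of the first lie among genes of another chromosome. The same holds for Wdr12, described below.

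Of the H/ACA proteins, Nhp2, Dkc1 (the pseudouridine synthase dyskerin) and Gar1 rose and Nop10 did not pass. Nhp2 had 7.94, 8.16 and 8.37 in perinate thymic Tregs, against 7.42, 7.28 and 7.19 in adult thymic Tregs, and differed by 0.86 ± 0.14 (adjusted p = 0.00595, limma). The groups did not overlap. Dkc1 differed by 0.79 (adjusted p = 0.00734) and Gar1 by 0.66 (adjusted p = 0.0195). Nop10 had 9.69, 9.74 and 9.83 against 9.36, 9.54 and 9.54 in adult thymus, and differed by 0.27 (adjusted p = 0.105). All 4 nucleolar chaperones and binding proteins passed. Ncl (nucleolin) had 11.16, 11.03 and 11.11 against 10.55, 9.92 and 10.46 in adult thymus, a difference of 0.79 ± 0.17 (adjusted p = 0.0168), and adult replicate 2 was the low value. Npm1 (nucleophosmin) had 10.61, 10.75 and 10.75 against 10.37, 10.09 and 10.33 in adult thymus (0.44 ± 0.12, adjusted p = 0.0362). Gnl3 (nucleostemin) and Nolc1 differed by 0.57 and 0.47.

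The RNA polymerase I group rose as a whole, 4 of 4. Its largest subunit Polr1a had 9.26, 9.23 and 9.05 in perinate thymic Tregs, against 8.44, 8.25 and 8.55 in adult thymic Tregs (0.77 ± 0.13, adjusted p = 0.00606, limma). Polr1b had 9.32, 9.39 and 9.31 against 8.63, 8.30 and 8.70 (0.80 ± 0.14, adjusted p = 0.0067). None of these values overlapped between the groups. Mybbp1a, a nucleolar protein that binds MYB, had 9.57, 9.56 and 9.61 in perinate thymic Tregs, against 8.92, 8.90 and 8.82 in adult thymic Tregs (0.70 ± 0.11, adjusted p = 0.00394). The nucleolar RNA helicase Ddx21 had 10.35, 10.28 and 10.34 against 9.89, 9.74 and 9.99 (0.45 ± 0.12, adjusted p = 0.0285).

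Of the 7 processome members 6 passed. Heatr1 had 9.64, 9.50 and 9.44 in perinate thymic Tregs, against 8.90, 8.96 and 8.79 in adult thymic Tregs (0.65 ± 0.12, adjusted p = 0.00821, limma). Utp15 had 8.71, 8.58 and 8.71 against 7.99, 7.49 and 7.98 (0.85 ± 0.16, adjusted p = 0.0093). Neither of these overlapped between the groups. Wdr43, another processome subunit, had 10.11, 10.10 and 10.23 against 9.78, 9.83 and 9.71 (0.38 ± 0.11, adjusted p = 0.0409). Utp20, Nop14 and Wdr75 differed by 0.58, 0.51 and 0.50. Rrp9, a protein bound to the U3 small nucleolar RNA, differed by 0.51 and missed the threshold (adjusted p = 0.0891), with values of 8.25, 8.23 and 8.68 against 8.15, 7.49 and 7.96 in adult thymus, and adult replicate 2 the lowest.

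Among the factors of the late small subunit, Tsr1 and Ltv1 passed of 5. Tsr1, a GTPase-like assembly factor, had 8.80, 8.61 and 8.62 in perinate thymic Tregs, against 7.92, 7.36 and 7.74 in adult thymic Tregs, a difference of 1.00 ± 0.16 (adjusted p = 0.00522, limma). Ltv1 had 8.26, 8.45 and 8.49 against 7.90, 7.73 and 8.04 (0.51 ± 0.13, adjusted p = 0.0283). The groups did not overlap for either gene. The endonuclease Nob1 had 9.29, 9.33 and 9.53 against 9.03, 8.99 and 9.18 in adult thymus (0.32, adjusted p = 0.0857), while Rrp12 differed by 0.35 (0.0542) and Bysl by 0.41 (0.0763). Of the PeBoW complex, which acts in large subunit maturation, Pes1 had 8.86, 8.86 and 9.15 against 8.43, 8.20 and 8.12 (0.71 ± 0.14, adjusted p = 0.0112). Wdr12 had 8.39, 8.22 and 8.48 against 7.90, 7.83 and 7.66 (0.57 ± 0.13, adjusted p = 0.0171), also without overlap, and its second probe set gave 0.73 (adjusted p = 0.00949). Bop1 had 9.47, 9.46 and 9.72 against 9.33, 8.70 and 9.14 (0.49 ± 0.18, adjusted p = 0.0735). Of 7 further large subunit factors Nop2, Ebna1bp2, Noc3l and Rrp1b passed, with differences of 0.64, 0.58, 0.55 and 0.51. Nop2, an RNA methyltransferase, had 9.23, 9.13 and 9.23 against 8.73, 8.34 and 8.61 (adjusted p = 0.014). Nop16 had 10.12, 10.16 and 10.37 against 9.88, 9.92 and 9.88 in adult thymus (0.32 ± 0.12, adjusted p = 0.0745). Nip7 and Mrto4 differed by 0.31 and 0.15, also short of the threshold.

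**Figure D3:**
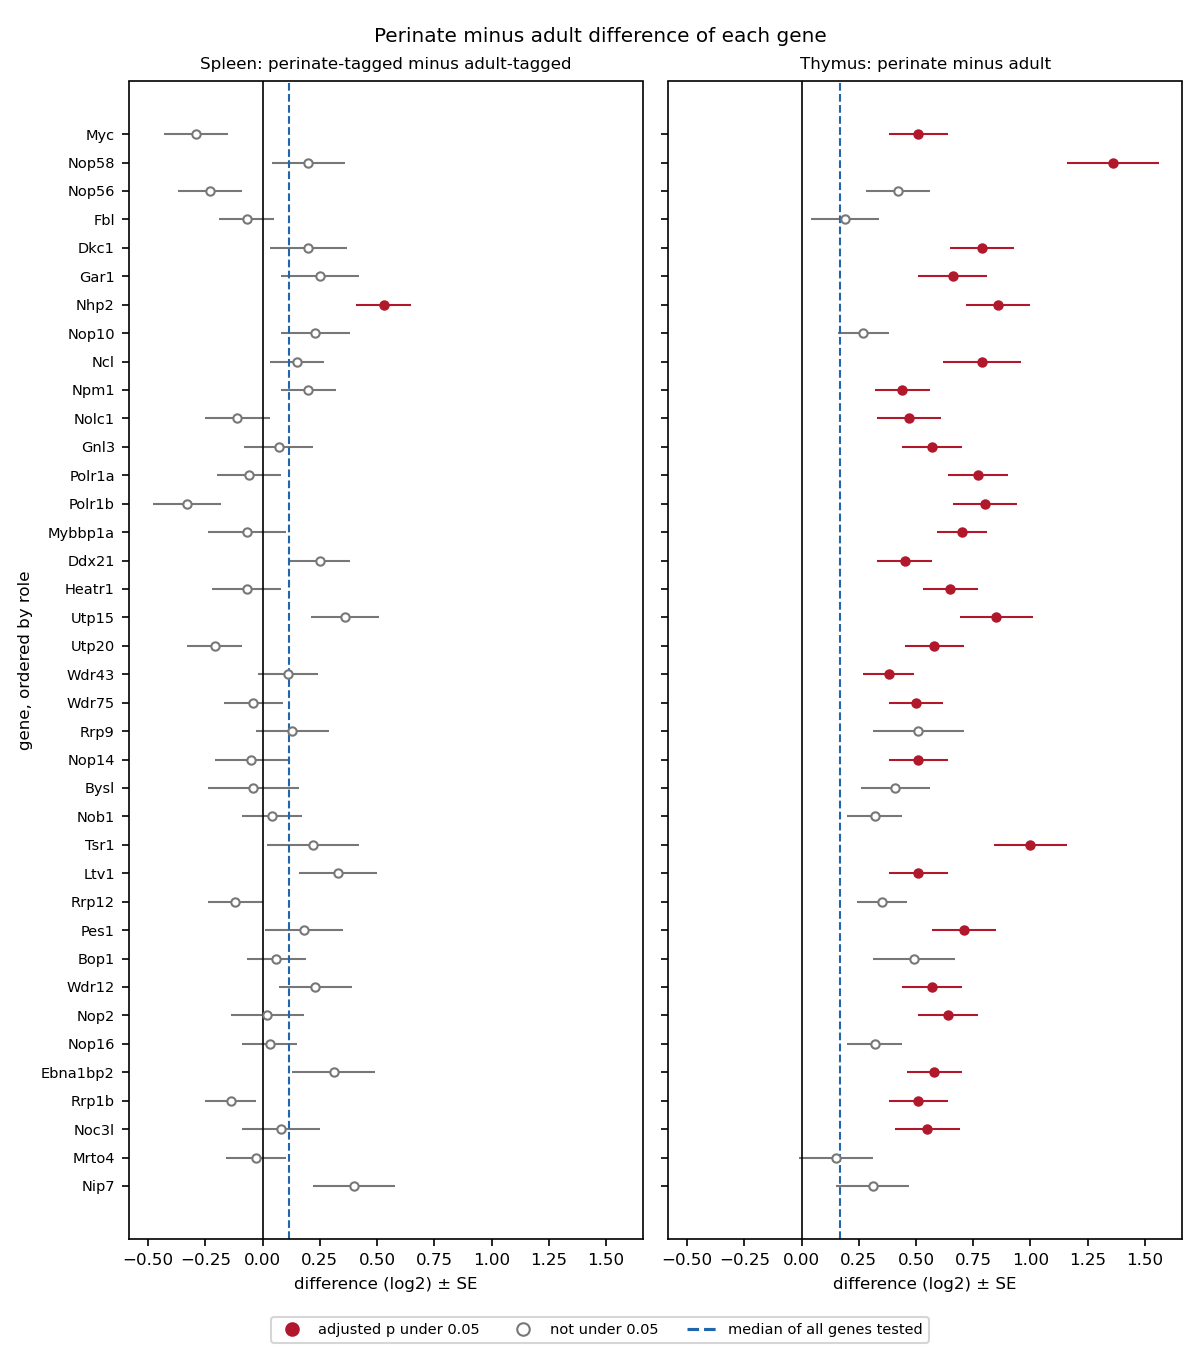
Perinate minus adult difference on the log2 scale for each tested member, in tagged spleen Tregs and in thymic Tregs, with bars of 1 standard error. Filled points passed an adjusted p of 0.05, and dashed lines mark the median of all tested genes. Thymus differences run from 0.15 to 1.36 and all lie above 0, while spleen differences run from -0.33 to 0.53.

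Promoters are shown for 4 of the members higher in the perinate thymus that carry the E-box, the sequence bound by MYC with its partner MAX, and for Nop58 and Polr1b, which carry none in the window. The E-box searched was CACGTG, which is its own reverse complement, within 250 bases before and 50 after each gene start in RefSeq (GRCm38.p6). It occurred in the windows of 7 of the 35 members with a window (20%), in 7 of the 25 among the 27 thymus-higher members with one (28%), and in 8.09% of all 27025 genes with a window. The last share covers all genes with a window, whether tested here or not, and was not worked out for the tested genes alone. Differences between these shares were not tested. A match is a description of these letters and shows no binding. The 100 bases below run from 70 before to 30 after the start, on the forward strand, with the E-box in capitals. Nop2 lies at chr6:125131813-125131912, Pes1 at chr11:3963905-3964004, Tsr1 at chr11:74898010-74898109, Wdr43 at chr17:71616145-71616244, Nop58 at chr1:59684936-59685035 and Polr1b at chr2:129100926-129101025. In Nop2 the match begins 60 bases before the start, and in Pes1, Wdr43 and Tsr1 3, 18 and 25 bases after it.
Nop2: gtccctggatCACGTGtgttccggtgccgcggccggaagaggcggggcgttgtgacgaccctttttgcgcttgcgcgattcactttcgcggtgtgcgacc
Pes1: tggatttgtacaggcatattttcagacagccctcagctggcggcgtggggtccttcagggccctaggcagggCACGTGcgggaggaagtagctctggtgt
Tsr1: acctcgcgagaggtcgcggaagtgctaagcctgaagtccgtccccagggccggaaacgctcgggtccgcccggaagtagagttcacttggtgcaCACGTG
Wdr43: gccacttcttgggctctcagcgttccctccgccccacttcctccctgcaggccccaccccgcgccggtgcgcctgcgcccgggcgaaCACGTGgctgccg
Nop58: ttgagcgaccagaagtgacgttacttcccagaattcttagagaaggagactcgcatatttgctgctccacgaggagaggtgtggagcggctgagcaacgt
Polr1b: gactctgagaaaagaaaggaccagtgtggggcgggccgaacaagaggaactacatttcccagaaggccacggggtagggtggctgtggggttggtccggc

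The difference between the spleen and the thymus differences was itself tested, in a fit of all 18 arrays. It was lower in the spleen for 8 of 38 members and higher for 0 (adjusted p under 0.05, limma), where 2.56% of all 10889 tested genes were lower and 3.89% higher (6.46% in either direction). The values, spleen minus thymus, were -1.16 ± 0.26 for Nop58 (adjusted p = 0.0101), -1.12 ± 0.20 for Polr1b (0.00172), -0.83 ± 0.19 for Polr1a (0.0134), -0.80 ± 0.19 for Myc (0.015) and -0.79 ± 0.17 for Utp20 (0.00857). Mybbp1a (-0.78 ± 0.21, 0.034), Heatr1 (-0.72 ± 0.20, 0.0401) and Rrp1b (-0.65 ± 0.16, 0.0192) completed the set. Of the 38 differences 37 were negative, Nip7 at 0.09 being the exception, and the median was -0.48, against -0.047 for all genes. Without perinate-tagged replicate 2, 6 members passed, all of the 8 but Heatr1 and Mybbp1a, and 36 of 38 differences stayed negative. These losses were not particular to that array. Of 23 alternative fits, Heatr1 lost its call in 13, Mybbp1a in 12, Rrp1b in 4 and Polr1a in 2. Myc, Nop58, Polr1b and Utp20 kept theirs in all 23. Spleen and thymus differ also in sex, sorter and mouse age.

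Genes outside the list of 41 give the setting. In further lists of ribosome biogenesis genes, 49 of 120 tested were higher in perinate thymic Tregs and 0 lower, beside the 18.5% and 5.84% of all genes, with Sdad1 at 0.92 (adjusted p = 0.00319) and Pno1 at 0.90 (0.00835). In the spleen 12 of 121 were higher (9.92%) and 2 lower (1.65%), under the 16% and 3.5% of all tested genes, and 11 and 2 without perinate-tagged replicate 2. Those with the lowest p were Polr1d (0.81, adjusted p = 0.00139), Snu13 (0.72, 0.00164) and Taf1d (0.87, 0.00166) upward and Polr3e (-1.01, 0.00448) and Mdn1 (-0.62, 0.0288) downward, of which Mdn1 lost its call without that array (-0.52, 0.0877). Of 58 ribosomal protein genes 18 were higher in the perinate thymus, and in the spleen 1 rose and 1 fell, with or without perinate-tagged replicate 2. Of 23 growth genes known as Myc targets 17 were higher in perinate thymic Tregs, with a median of 0.79, among them Cad, which makes pyrimidines (1.42 ± 0.18, adjusted p = 0.00193), Hspd1 (1.04), Umps (0.96) and Gart (0.82). In the spleen 3 passed (13%, against 16% of all genes), Ran (0.87), Ppat (0.57) and Phb2 (0.41), and 7 without perinate-tagged replicate 2 (30.4%, against 15.3% of all genes). Over single arrays left out the thymus counts ran from 7 to 71 for the further biogenesis genes, 1 to 30 for the ribosomal proteins and 3 to 20 for the growth genes, and the spleen counts of higher genes from 3 to 13, 1 to 1 and 1 to 7. Of the mitosis genes, Mki67 had 10.91, 11.03 and 10.86 in perinate-tagged cells, against 7.83, 8.76 and 8.23 in adult-tagged cells, a difference of 2.65 ± 0.22, without overlap.

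Of 11 tested partners and antagonists of Myc, 3 were higher and 1 lower in perinate-tagged than in adult-tagged cells, and 3 were higher in perinate than in adult thymic Tregs, where 16%, 3.5% and 18.5% of all genes were. Over single arrays left out, 1 to 3 were higher and 0 lower in the spleen. In the thymus 0 to 3 were then higher and 0 to 2 lower. Max, with which MYC pairs, differed by 0.22 in the spleen (adjusted p = 0.228) and -0.36 in the thymus (0.0623). Of the MXD repressors that compete for Max, Mxd1 was higher in perinate-tagged than in adult-tagged cells (0.56, 0.00933) and in perinate than in adult thymic Tregs (0.82, 0.0161), and Mxd3 in the spleen (0.54, 0.0103). Mxi1, another, was higher in the perinate thymus (0.60, 0.00821). Mga was lower in perinate-tagged cells (-0.40, 0.0326). That call was lost whichever of the 6 arrays was left out (-0.42, 0.0515 without perinate-tagged replicate 2). Mycbp was higher in both comparisons, at 0.86 (0.0096) and 0.57 (0.0262). Mycn and Mycl, the other family members, reached at most 6.79 and 6.90 on any of the 18 arrays, under the filter.

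**Figure D4:**
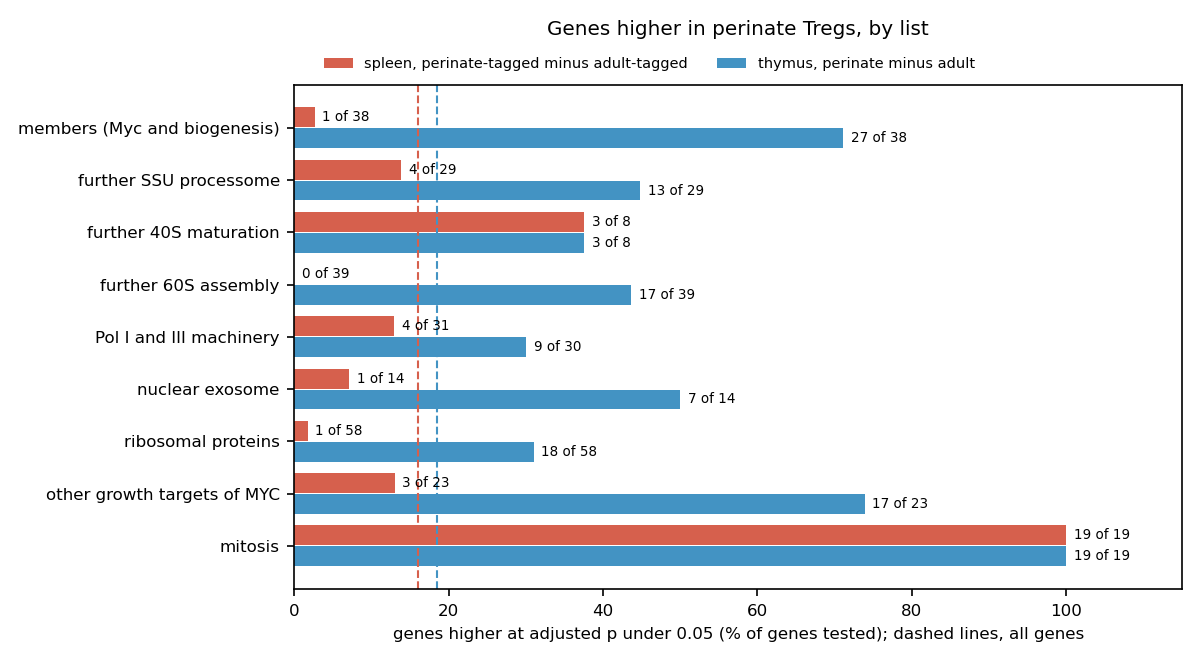
Share of tested genes higher in perinate Tregs at an adjusted p under 0.05, by gene list, in the tagged spleen (red) and the thymus (blue) comparison. Dashed lines mark the share of all tested genes, 16% in the spleen and 18.5% in the thymus.

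Markers of other cells were read beside these results. Of B cell genes 1 of the 6 measured was bright enough to test and was higher in perinate-tagged cells (Cd79b, 0.66, adjusted p = 0.00476), while the mean level of the list was 6.20 to 6.36 on perinate-tagged and 6.21 to 6.28 on adult-tagged arrays. Of 5 tested stromal and epithelial genes Epcam was higher in perinate-tagged cells (1.07, adjusted p = 0.00502). Myeloid genes had a mean log2 level of 6.10 to 6.20 on perinate-tagged and 6.07 to 6.30 on adult-tagged arrays, and stromal and epithelial genes 7.32 to 7.50 and 7.35 to 7.49. These 3 lists overlapped between the groups. NK and innate lymphoid genes lay lower on perinate-tagged arrays, at 5.58 to 5.69 against 5.74 to 5.81 on adult-tagged arrays, as did the immature thymocyte genes, at 6.36 to 6.45 against 6.52 to 6.68, both without overlap. The adult-tagged arrays were also the narrower ones, with an interquartile range of 2.49 to 2.88 against 2.94 to 3.12. The part of width in these list means was not tested. In the thymus the immature thymocyte genes had a mean log2 level of 7.02 to 7.14 on perinate arrays and 7.41 to 7.45 on adult arrays, and Cd8a was lower in perinate thymic Tregs by 0.61 (adjusted p = 0.00735). B cell genes lay at 6.08 to 6.17 on perinate and 6.46 to 6.57 on adult thymus arrays, and myeloid genes at 5.98 to 6.08 and 6.20 to 6.60. NK and innate lymphoid genes had 5.81 to 5.95 on perinate and 6.03 to 6.22 on adult thymus arrays, and stromal and epithelial genes 7.37 to 7.47 and 7.51 to 7.59. All 5 lists were thus lower on the perinate thymus arrays, without overlap. The B cell, myeloid, and NK and innate lymphoid means lay under the level of the filter on low values. The adult thymus arrays were also the narrower ones, with an interquartile range of 2.08 to 2.82 against 3.00 to 3.06. Adult replicate 2, the narrowest, had the highest B cell, myeloid and NK means, at 6.57, 6.60 and 6.22. Its stromal and epithelial mean of 7.53 lay below the 7.59 of replicate 3. How far width accounts for the lower list means was not tested. The erythroid genes measured were Alas2, Klf1 and Tfrc. Their mean log2 level was 7.18 to 7.30 on perinate and 7.02 to 7.24 on adult thymus arrays, with overlap. Of them Tfrc, the transferrin receptor, which dividing cells also carry, was higher in perinate thymic Tregs (1.09, adjusted p = 0.00348, limma). The list as a whole thus did not separate the thymus groups. The part of other cells in the member differences was not tested.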

How the data were processed

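RNA of sorted Tregs was measured on 18 arrays in 6 groups of 3. For each probe set the authors deposited an intensity on a linear scale (lowest 6.81); the submitters' processing notes name RMA and Affymetrix Power Tools. No genome build or list of arrays normalized together is given in the sources used here. The table held 24922 probe sets, of which 21425 carried 1 gene symbol, 1399 several and 2098 none.

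Intensities were log2 transformed without pseudocount or further normalization. The probe set with the highest mean over the 18 arrays was kept for each gene (19752 genes). A gene was fitted where 1 or more group means reached 7.05 on the log2 scale, the median over the whole deposited table. Differences were tested with limma 3.58.1 (lmFit and eBayes, two-sided) in R 4.3.3, in fits of 12 spleen arrays (10350 genes), 6 thymus arrays (10650) or all 18 (10889), with Benjamini-Hochberg adjustment over all genes of a fit and a threshold of 0.05. The fitting code was tested on simulated data. Python 3.11.15 and matplotlib 3.10.9 drew the figures. The number of arrays limits the precision.

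The members and gene lists were chosen with earlier results of these data known. Genes named with array values are Myc and, per role group, those with the lowest p in the tagged and the thymus comparison and with the highest mean. Polr1a, Rrp9 and Nop14 were given with array values after their values were seen. Of further lists, up to 4 genes past the threshold by p were named, and of the Myc network any gene. Foxp3 and Mki67 served as checks, Eif2s3y and Xist were named after their values were seen, and the other members are given by their differences. Other scalings, filters, probe set rules, array weights, covariates and left-out arrays were tried. Those leaving out the arrays of narrowest spread, leaving out single arrays for the further gene lists, and using the second probe sets of Fbl and Wdr12 were added after seeing the data.

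Replicate numbers were checked for pairing. Same-numbered untagged arrays deviated together (r = 0.626, 0.144 and 0.466), so these numbers were taken to pair perinate-treated and adult-treated cells, from the data and not from a label. Perinate-treated 5 with adult-treated 4 (0.303) and 4 with 5 (0.274) exceeded the 0.144 of replicate 4, so this pairing is uncertain. The remaining differently numbered untagged pairs ran from -0.641 to -0.281. The same-numbered thymus arrays did not deviate together (r = -0.053, 0.058 and 0.121). Perinate-tagged and untagged perinate-treated arrays numbered 4 and 5 gave r = -0.11 and 0.001. Adult-tagged arrays were not checked. The labels do not say whether tagged and untagged cells of the same number came from the same mice.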

Additional observations from a re-analysis of the deposited data

Results flagged for a closer look

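Each of the following is a test of a difference between 2 perinate over adult differences. For Nhp2 the tagged minus the untagged difference was 0.68. For 8 members the spleen difference minus the thymus difference passed: Myc at -0.80, Nop58 at -1.16, Polr1a at -0.83, Polr1b at -1.12, Mybbp1a at -0.78, Heatr1 at -0.72, Utp20 at -0.79 and Rrp1b at -0.65. In the thymus all 8 were higher in perinate than in adult cells, whereas none of the 8 passed in the spleen. Spleen and thymus cells came from mice of different sex and age and from different sorters, which cannot be told apart from tissue.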

How the results depend on the processing

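Counts of members past the threshold moved as follows. In tagged spleen cells (1 in the fit reported) quantile normalization gave 4 (1 higher, 3 lower), array weights 13, and only the 6 arrays of the contrast 2. The replicate block, the interquartile range as a covariate, and leaving out the 2 arrays of narrowest spread each gave 0. Leaving out single arrays gave 1 to 1. The tagged minus untagged difference (1) became 0 with no filter on low values, with the replicate block, with the interquartile range as a covariate and without the 2 arrays of narrowest spread, and ranged from 0 to 1 over single arrays left out. Tagged minus untagged after perinate treatment (0) gave 1 with quantile normalization, 9 with array weights, 1 with the replicate block and 1 with the interquartile range, and 0 to 1 over single arrays. After adult treatment it was 0 to 1 over single arrays (1 without untagged adult-treated replicate 3), and 0 otherwise. In the thymus (27) quantile normalization and array weights each gave 16, other settings 19 to 32, and single arrays 8 to 33. The spleen minus thymus difference (8) gave 13 with quantile normalization, 27 with array weights, 15 with the interquartile range and 5 without the 2 arrays of narrowest spread, and 5 to 11 over single arrays. Untagged members stayed at 0 in all settings tried. None of the members' called differences turned its sign in any setting. Over all genes, the tagged count of 2020 ran from 256 without the 2 arrays of narrowest spread to 5904 with array weights, the thymus count of 2589 from 707 to 4388 over single arrays, the tagged minus untagged difference (506) from 247 to 1077, tagged minus untagged from 299 to 3867 after perinate (760) and from 0 to 774 after adult treatment (28), and the spleen minus thymus difference (703) from 393 to 5085. Quantile normalization also changed the split into higher and lower genes from 444 and 62 to 413 and 140 for the tagged minus untagged difference, and from 568 and 192 to 511 and 360 for tagged minus untagged after perinate treatment (590 and 334 with the interquartile range as a covariate). The replicate numbers of the tagged and thymus groups were not taken as pairs, and blocking by them gave 24 members in the thymus. In the untagged groups, taken as paired, the block gave 0 members and, with the 6 arrays alone, 49 genes against 0. The causes of these moves were not tested.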

Other observations

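Small nucleolar RNAs are the RNA partners of the box C/D and H/ACA proteins. In tagged compared with untagged cells after perinate treatment 19 of 44 tested small nucleolar RNA probe sets were lower and 0 higher, where 1.86% of all genes were lower (limma). The median log2 difference was -0.81, against 0.02 for all genes, and all 44 were negative. The count depends on single arrays: it was 4 when perinate-tagged replicate 2 was left out, 8 when replicate 4 or 5 of that group was, 2 and 5 without untagged perinate-treated replicates 4 and 5, and 30 without untagged perinate-treated replicate 3, with medians of -1.02 to -0.64. The untagged perinate-treated group stood above the other spleen groups in its mean, at 9.23 ± 0.41, against 8.40 ± 0.31 in perinate-tagged, 8.50 ± 0.05 in adult-tagged and 8.50 ± 0.28 in untagged adult-treated cells (SD, n = 3 each). Between untagged groups all 44 differences were positive with a median of 0.64, and 0 passed (limma). In perinate-tagged against adult-tagged cells 2 of 44 were lower (4.55%, against 3.5% of all genes) and 0 higher, and 0 to 3 were lower over single arrays left out. In the perinate against the adult thymus 9 of 42 were higher and 3 lower, near the 18.5% and 5.84% of all genes.

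Genes induced by p53, which ribosomal stress can activate, were higher in perinate-tagged than in adult-tagged cells for 4 of 10 tested, beside 16% of all genes: Sesn2 (0.90, adjusted p = 0.00103), Zmat3 (0.67, 0.00251), Ei24 (0.66, 0.0169) and Trp53inp1 (0.46, 0.0408, all limma). The count was 5 without perinate-tagged replicate 2, 3 without adult-tagged replicate 2 and 2 without any other of the 6 arrays. In the thymus 0 were higher and Ccng1 was lower (-0.64, 0.00674). Immediate early genes were higher for 5 of 14 in perinate-tagged cells (5 without perinate-tagged replicate 2, 4 to 5 over single arrays), among them Ier3 (1.09), Fos (1.44), Fosb (0.96) and Egr2 (0.68), and for 4 of 13 in perinate thymic Tregs, with 1 lower, beside 18.5% and 5.84% of all genes. The thymus count of higher genes ran from 2 to 7 over single arrays left out, with 2 without perinate replicate 1 or 3 and 7 without adult replicate 1.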
